A study of Homo sapiens with 12 samples.

Results

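Selective autophagy cargo receptors were read as a set of 9 genes, chosen by name: SQSTM1, OPTN, NBR1, CALCOCO2, TAX1BP1, BNIP3, BNIP3L, FUNDC1 and TOLLIP. All 9 had a row among the 57820 genes of the table. The RNA came from HL60, an established human acute myeloid leukaemia line of promyelocytic character. One line carried the lentiviral plasmid pRRL-EV-puro (empty vector, EV). The other carried pRRL-TFEBS211A-puro, which expresses the S211A form of TFEB under doxycycline. TFEB is a transcription factor of lysosomal and autophagy genes, and the substitution removes a phosphorylated serine that holds it in the cytoplasm. Cells were kept in RPMI-1640 medium (10% FBS) and were sampled with vehicle (Veh) and with doxycycline (Dox). This gave 4 groups, EV_Veh, EV_Dox, TFEB_Veh and TFEB_Dox, of 3 biologically independent experiments each. Doxycycline is listed at 1 µg/ml for 48 h in the protocol of every sample, vehicle samples included, so the treatment was taken from the titles. Both lines were transduced, so no group holds unmodified cells. The sources used here do not give whether each line was a pool or 1 clone, or which promoter drove the transgene. The promyelocyte markers of HL60, among them MPO and PRTN3, were abundant in the libraries with vehicle.

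Cargo receptors link what is to be degraded to the growing autophagosome. They bind the cargo, often through ubiquitin attached to it, and they bind proteins of the ATG8 family (LC3 and GABARAP) on the membrane through a short LC3-interacting region. SQSTM1 (p62), NBR1, OPTN, TAX1BP1, CALCOCO2 (NDP52) and TOLLIP are soluble and read ubiquitin, whereas BNIP3, BNIP3L (NIX) and FUNDC1 sit in the outer mitochondrial membrane and mark mitochondria directly. In blood cells BNIP3L is known for clearing mitochondria from maturing red cells, and SQSTM1 is both a receptor and a substrate of autophagy, so its protein and its RNA need not move together. Only RNA was measured here.

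Libraries held 4474007 to 22488047 reads. Per library the deposited totals differed 5.56-fold, and the level of well-expressed genes differed 7.07-fold, from a factor of 0.313 in an EV_Dox library to 2.21 in an EV_Veh library. Values are therefore given on the deposited scale, on which the main test was run, and also on an expressed-gene scale, in which each library is divided by its median ratio over 7290 nuclear genes whose mean reached 200. On the deposited scale the median expressed gene was 0.73 higher in log2 in TFEB_Dox than in TFEB_Veh and 1.29 lower in EV_Dox than in EV_Veh. On the expressed-gene scale these medians were -0.02 and 0.00. A call is an adjusted p under 0.05 in limma over all genes tested, 23128 genes with a mean of at least 10 on the deposited scale and the 7290 expressed genes on the other. All 9 receptors passed the first filter, also over the 9 control libraries alone. FUNDC1, with a mean of 39.8, did not pass the second, and OPTN and BNIP3 passed it only through TFEB_Dox. TFEB itself was at 79.8 to 196 in the 9 control libraries and at 14470 to 22630 in TFEB_Dox, as the labels have it. Its row can count endogenous and vector-derived transcripts together.

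Promoter windows are described because TFEB is a factor known to bind E-boxes, and whether it acts on these receptors was not tested. RefSeq (GRCh38.p14) gave 14 windows of 300 bases, 250 before a gene's start and 50 after it, for 8 of the 9 receptors, all but BNIP3L. The E-box CACGTG, a palindrome that reads the same on both strands, stood in 1 window, that of BNIP3, starting at base 117 from the 5′ end of the window. It was held by 7.26% of all 35116 windows. The longer form TCACGTGA stood in none of the 14 windows and in 0.98% of all. The hypoxia response core ACGTG, which every CACGTG also contains, stood in the windows of BNIP3 and CALCOCO2 (from base 190) and in 21.4% of all. The antioxidant response core TGACNNNGC stood in the windows of CALCOCO2 (base 122) and TOLLIP (base 56 of the first of its windows) and in 13.4% of all. Both strands were searched. The 250 bases before the start are printed for BNIP3, the receptor with an E-box among the 8 searched. They are also printed for CALCOCO2, which has the hypoxia core and did not pass the test in TFEB_Dox against TFEB_Veh. Those of the first window of OPTN are printed too, since OPTN rose most and its windows held none of the 4 motifs. Capitals mark CACGTG in BNIP3 and ACGTG in CALCOCO2.
BNIP3, chr10:131981924-131982173, minus strand: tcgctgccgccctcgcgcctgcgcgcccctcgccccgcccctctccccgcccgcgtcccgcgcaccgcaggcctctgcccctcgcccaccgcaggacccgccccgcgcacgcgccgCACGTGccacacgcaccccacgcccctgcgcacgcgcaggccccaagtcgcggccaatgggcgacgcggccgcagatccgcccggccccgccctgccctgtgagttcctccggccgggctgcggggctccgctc
CALCOCO2, chr17:48830785-48831034, plus strand: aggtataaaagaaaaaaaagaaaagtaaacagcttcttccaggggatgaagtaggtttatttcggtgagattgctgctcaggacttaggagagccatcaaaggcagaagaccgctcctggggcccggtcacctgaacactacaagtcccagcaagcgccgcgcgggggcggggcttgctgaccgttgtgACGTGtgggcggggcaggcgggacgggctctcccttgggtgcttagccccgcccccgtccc
OPTN, chr10:13099832-13100081, plus strand: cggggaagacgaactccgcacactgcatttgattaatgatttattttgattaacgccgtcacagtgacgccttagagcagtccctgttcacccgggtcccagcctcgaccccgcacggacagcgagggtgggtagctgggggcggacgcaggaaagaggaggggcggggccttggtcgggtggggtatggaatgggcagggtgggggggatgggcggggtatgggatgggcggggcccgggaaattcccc
A match is a description of letters in a window, and binding was not measured.

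The comparison of TFEB_Dox with TFEB_Veh sets the transgene line with doxycycline against the same line with vehicle, so that drug and transgene change together and cannot be told apart within it. Of the 9 receptors 6 rose, OPTN, TOLLIP, SQSTM1, TAX1BP1, BNIP3L and BNIP3, and NBR1, CALCOCO2 and FUNDC1 did not pass the test. On the deposited scale 17.4% of all genes tested were called higher and 4.66% lower, and none of the receptors was called lower. The same 6 were called under each of 5 library scalings, a rule that 12.6% of genes met. In the fit of expressed genes, where 36.2% of genes were called higher and 35.5% lower, SQSTM1, TAX1BP1, BNIP3L and TOLLIP were called higher of the 6 receptors that pass its filter without TFEB_Dox. OPTN and BNIP3, which pass it only through TFEB_Dox, add no support there, and in the comparisons that follow, to a count in that fit. The median change of the 9 receptors was 2.60 on the deposited scale and 1.85 on the expressed-gene scale, against -0.00 over all genes tested and 0.73 over expressed genes on the deposited scale. The soluble and the mitochondrial receptors each had at least 1 member that did not pass. In bulk RNA, fewer cells of a type and less RNA per cell cannot be told apart.

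**Figure D1:**
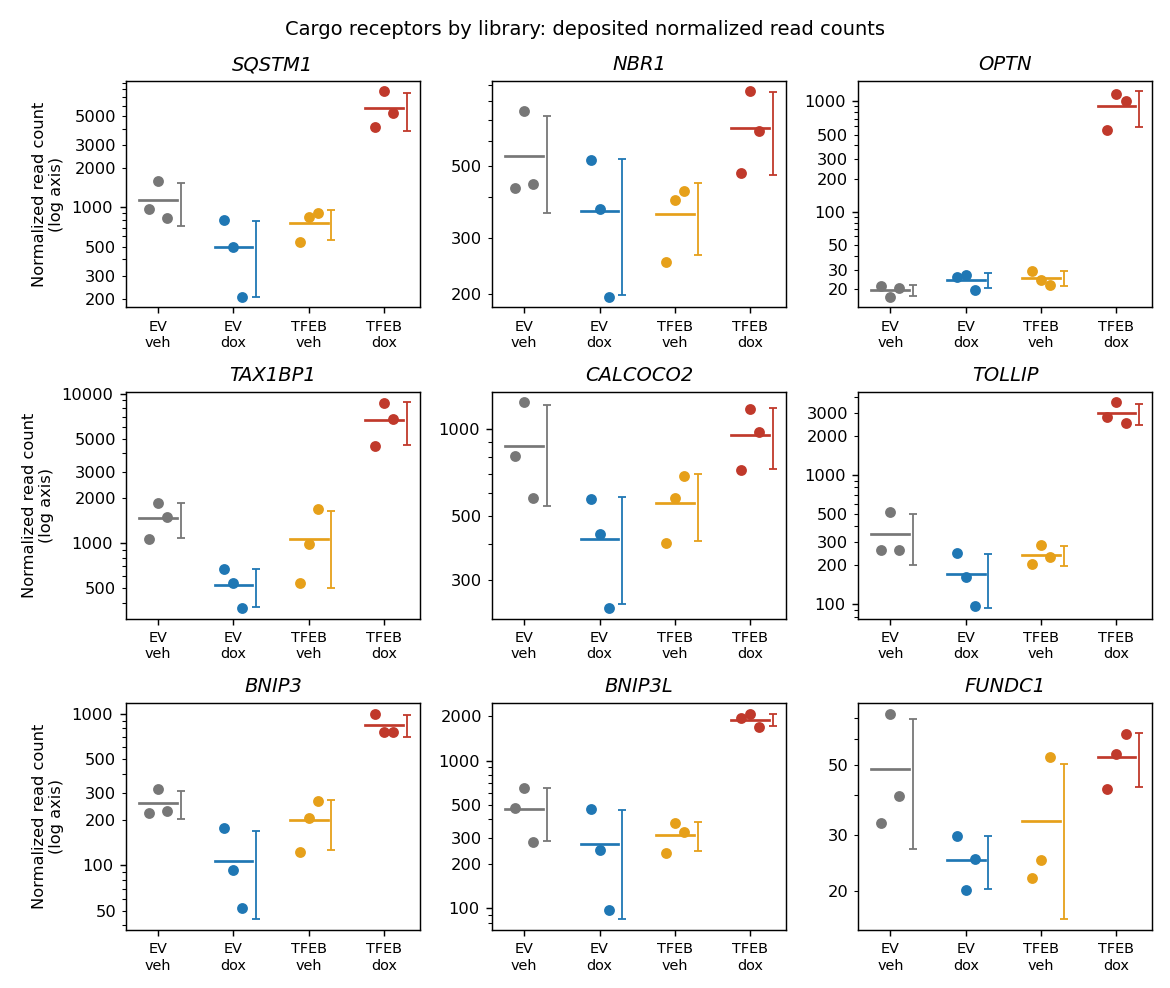
Deposited normalized read counts of the 9 receptors (log axis, its range set per gene) in the 12 libraries by group. Points are libraries, horizontal lines group means, and bars 1 SD (n = 3). The TFEB_Dox points of SQSTM1, OPTN, TAX1BP1, TOLLIP, BNIP3 and BNIP3L lie above all 9 control libraries, and those of NBR1, CALCOCO2 and FUNDC1 overlap them. The share of all genes that separate in this way was not counted, here or for the single receptors below.

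SQSTM1 (ENSG00000161011.15) encodes p62, which gathers ubiquitylated proteins into bodies and delivers them to LC3. Its normalized counts were 968, 1596 and 827 in EV_Veh, 796, 495 and 208 in EV_Dox, 542, 838 and 910 in TFEB_Veh, and 4098, 7735 and 5320 in TFEB_Dox. The lowest TFEB_Dox library was 2.57 times the highest control library. The rise over TFEB_Veh was 2.89 in log2 (SE 0.54, adjusted p = 5.03e-05, limma), and on the expressed-gene scale 2.14 (SE 0.13, adjusted p = 1.24e-08, limma). On that scale the 9 control libraries closed up to between 665 and 882, with TFEB_Dox at 3790 ± 543 (SD, n = 3).

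NBR1 (ENSG00000188554.9), the other receptor with a PB1 domain and a partner of SQSTM1 in aggregates, did not follow it. Its counts were 429, 746 and 440 in EV_Veh, 523, 368 and 196 in EV_Dox, 251, 393 and 418 in TFEB_Veh, and 477, 858 and 647 in TFEB_Dox, so TFEB_Dox overlapped the controls. The difference from TFEB_Veh was 0.89 (SE 0.47, adjusted p = 0.185, limma), near the shift of the median expressed gene. After scaling on expressed genes it was 0.14, with a 95% interval of -0.14 to 0.42 (adjusted p = 0.34, limma). The ratio of SQSTM1 to NBR1 within a library does not depend on the scale. In log2 it was 1.11 ± 0.01 in TFEB_Veh and 3.11 ± 0.07 in TFEB_Dox (SD, n = 3), against 0.09 to 1.18 over all 9 control libraries.

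OPTN (ENSG00000123240.12) encodes optineurin, a ubiquitin-binding receptor of damaged mitochondria and bacteria that is switched on by the kinase TBK1. It had the largest change of the 9. In controls it was low, at 21.1, 16.9 and 20.3 in EV_Veh, 25.5, 26.8 and 19.7 in EV_Dox, and 29.2, 24.1 and 21.9 in TFEB_Veh. The mean of these 9 libraries lies at percentile 29.8 of the genes tested. Its recovered reads did not follow depth, at 17 in EV_Veh replicate 2 (22488047 reads) and 22 in EV_Dox replicate 3 (4474007 reads). The size of its fold changes on either scale rests on this low control level. In TFEB_Dox it was 555, 1177 and 1007, the lowest of them 19.0 times the highest control on the deposited scale and 6.86 times on the expressed-gene scale. The rise over TFEB_Veh was 5.07 (SE 0.31, adjusted p = 1.27e-17, limma), and 4.33 on the expressed-gene scale (SE 0.49, adjusted p = 3.19e-06, limma).

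TAX1BP1 (ENSG00000106052.9), a receptor of protein aggregates and a partner of the ubiquitin editor TNFAIP3 (A20), and CALCOCO2 (ENSG00000136436.10), its relative with the same SKICH domain that targets bacteria and mitochondria, parted in these data. TAX1BP1 read 1071, 1852 and 1487 in EV_Veh, 669, 544 and 368 in EV_Dox, 545, 994 and 1689 in TFEB_Veh, and 4438, 8640 and 6773 in TFEB_Dox. CALCOCO2 read 809, 1233 and 577 in EV_Veh, 571, 435 and 240 in EV_Dox, 403, 577 and 689 in TFEB_Veh, and 721, 1170 and 972 in TFEB_Dox. Every TFEB_Dox library was above every control for TAX1BP1, and for CALCOCO2 the groups overlapped. TAX1BP1 rose by 2.71 (SE 0.54, adjusted p = 0.000126, limma) over TFEB_Veh, and by 1.96 on the expressed-gene scale (SE 0.27, adjusted p = 2.06e-05, limma). CALCOCO2 differed by 0.78 (SE 0.49, adjusted p = 0.277, limma), and on the expressed-gene scale by 0.03, with a 95% interval of -0.24 to 0.31. Within libraries the log2 ratio of TAX1BP1 to CALCOCO2 was 0.84 ± 0.43 in TFEB_Veh and 2.77 ± 0.13 in TFEB_Dox (SD, n = 3), and 0.23 to 1.36 over the 9 controls. Scaled on expressed genes, replicate 3 had the highest TAX1BP1 value in each of the 4 groups, at 1492, 1176, 1622 and 4991 in EV_Veh, EV_Dox, TFEB_Veh and TFEB_Dox.

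TOLLIP (ENSG00000078902.11) binds ubiquitin through a CUE domain, serves the clearance of aggregates and also dampens Toll-like receptor signalling. It read 262, 521 and 264 in EV_Veh, 251, 161 and 97.8 in EV_Dox, 204, 287 and 231 in TFEB_Veh, and 2798, 3625 and 2520 in TFEB_Dox. Its lowest TFEB_Dox library was 4.84 times the highest control on the deposited scale and 5.70 times on the expressed-gene scale. The rise over TFEB_Veh was 3.62 (SE 0.46, adjusted p = 3.09e-08, limma) and 2.87 on the expressed-gene scale (SE 0.15, adjusted p = 2.43e-09, limma), next after OPTN on both scales. The antisense gene TOLLIP-AS1 had values of 3.23 to 9.43 in all 12 libraries, with no separation of TFEB_Dox from the controls.

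Among the mitochondrial receptors the related pair BNIP3 and BNIP3L rose and FUNDC1 did not pass the test. BNIP3 (ENSG00000176171.7), a hypoxia-induced mitophagy receptor, read 221, 318 and 227 in EV_Veh, 175, 92.3 and 52.0 in EV_Dox, 122, 204 and 265 in TFEB_Veh, and 1003, 762 and 756 in TFEB_Dox. BNIP3L (ENSG00000104765.10) read 480, 653 and 280 in EV_Veh, 472, 250 and 96.9 in EV_Dox, 238, 376 and 330 in TFEB_Veh, and 1925, 2058 and 1690 in TFEB_Dox. For both genes every TFEB_Dox library was above every control library. BNIP3 rose by 2.14 (SE 0.43, adjusted p = 0.000173, limma) and BNIP3L by 2.60 (SE 0.50, adjusted p = 7.91e-05, limma) over TFEB_Veh. With expressed genes as the scale, the rises were 1.39 (SE 0.23) and 1.85 (SE 0.19), with adjusted p of 0.000102 and 1.45e-06 in limma. BNIP3 had the smallest change of the 6. The log2 ratio of BNIP3 to BNIP3L was -1.18 ± 0.25 in TFEB_Dox (SD, n = 3), within the range of -1.44 to -0.30 of the controls.

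FUNDC1 (ENSG00000069509.5), a mitophagy receptor controlled by phosphorylation, read 32.8, 72.4 and 39.7 in EV_Veh, 29.7, 20.1 and 25.1 in EV_Dox, 21.9, 24.9 and 52.7 in TFEB_Veh, and 41.9, 53.8 and 62.4 in TFEB_Dox. All groups but EV_Dox overlapped TFEB_Dox. The difference from TFEB_Veh was 0.74 (SE 0.32, adjusted p = 0.0996, limma). On the expressed-gene scale, in the fit of all 23128 genes, it was 0.01 with a 95% interval of -0.96 to 0.98, a wide interval at this low level. Pseudogene copies could share reads with 2 of the receptors. BNIP3P2 was at 3.14 to 22.6 in TFEB_Dox and at most 0.99 in the controls, and the other copies found by name (BNIP3P1, BNIP3P3, BNIP3P7 and SQSTM1P1) reached at most 15.9 in any library, low beside the receptors themselves.

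**Figure D2:**
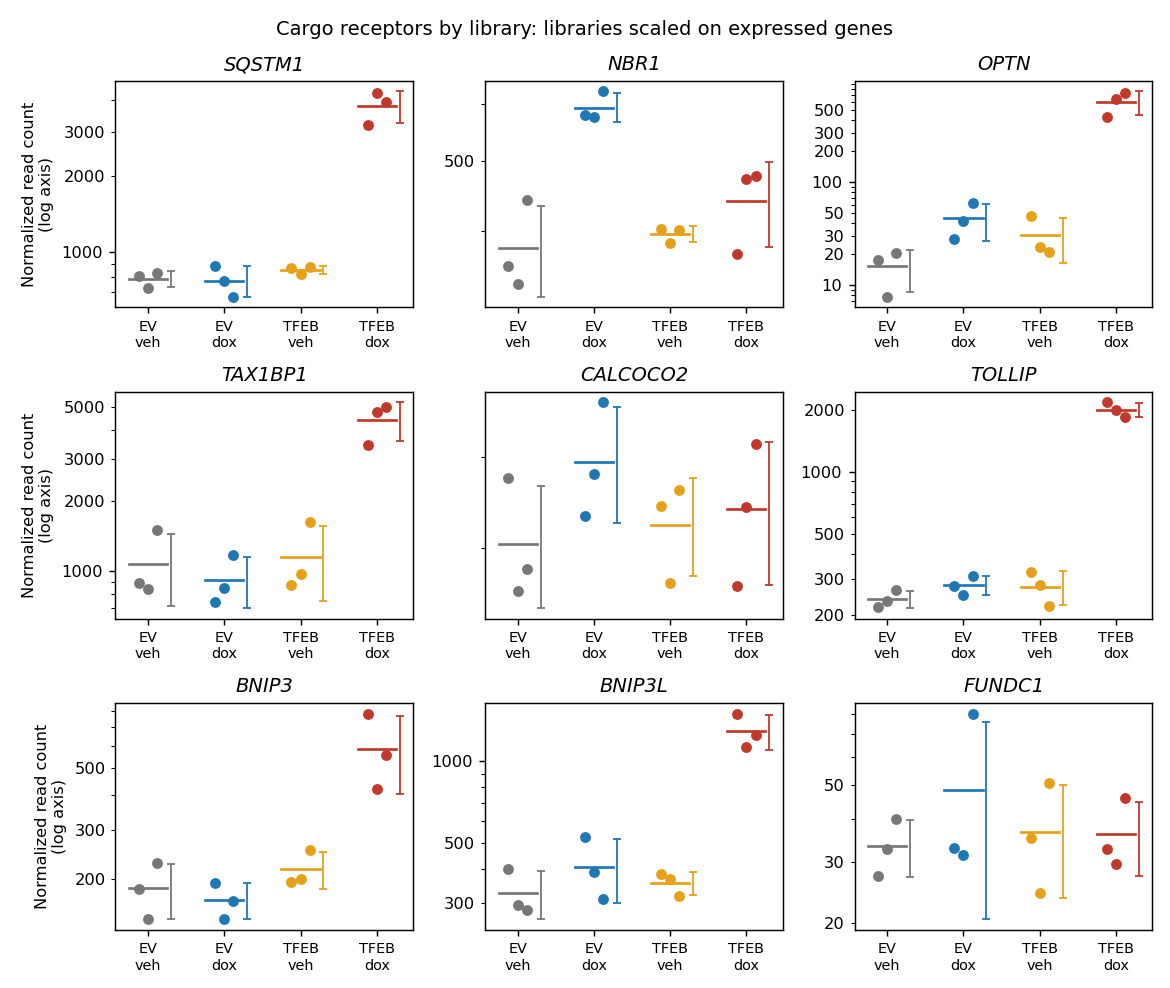
The same 12 libraries per receptor after scaling on expressed genes (log axis, its range set per gene). Points are libraries, horizontal lines group means and bars 1 SD (n = 3). Controls draw together for SQSTM1 (665 to 882), and the 3 EV_Dox points of NBR1 (576 to 625) lie above the other 9 libraries. The share of all genes with EV_Dox apart in this way was not counted.

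Set against EV_Dox, which received the drug without the transgene, the same 6 receptors were higher. On the deposited scale 8 of 9 were called higher, where 27.2% of all genes tested were, and none lower, where 5.37% were. CALCOCO2 (1.26, SE 0.49, adjusted p = 0.044, limma) and FUNDC1 (1.05, SE 0.32, adjusted p = 0.0108, limma) were among the 8, at less than the shift of the median expressed gene in this comparison, 1.38. The call of CALCOCO2 was lost without any 1 of EV_Veh replicate 1, EV_Dox replicates 2 and 3, TFEB_Veh replicates 2 and 3 and each TFEB_Dox library (adjusted p = 0.0526 to 0.171, limma), and that of FUNDC1 without EV_Dox replicate 2 (0.0599) or TFEB_Dox replicate 3 (0.0561). Under each of 5 scalings the 6 remained, a rule that 13.3% of genes met. The rises of these 6 on the deposited scale were 5.13 for OPTN, 4.21 for TOLLIP, 3.67 for SQSTM1, 3.64 for TAX1BP1, 3.13 for BNIP3 and 3.06 for BNIP3L. After scaling on expressed genes they were 3.78, 2.84, 2.29, 2.26, 1.76 and 1.68 in the same order, where 36.4% of genes were called higher and 35.5% lower. There CALCOCO2 differed by -0.12 (adjusted p = 0.422, limma), and FUNDC1, in the fit of all genes, by -0.30 (adjusted p = 0.56, limma).

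NBR1 changed side with the scale in this comparison. On the deposited scale it was 0.94 higher in TFEB_Dox than in EV_Dox (SE 0.47, adjusted p = 0.122, limma). Scaled on expressed genes, it was 0.44 lower in log2 (-0.44, SE 0.13, adjusted p = 0.00834, limma). The expressed-gene values were 358, 337 and 441 in EV_Veh, 580, 576 and 625 in EV_Dox, 402, 385 and 402 in TFEB_Veh, and 372, 472 and 477 in TFEB_Dox. The EV_Dox libraries are the 3 highest of the 12 and do not overlap the other groups, while the other 3 groups overlap. How many genes of the table have EV_Dox apart in this way was not counted. Without TFEB_Dox replicate 1 the difference on that scale was -0.32 and no longer passed (adjusted p = 0.0539, limma, fit of all genes).

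Against EV_Veh, the empty vector line with vehicle, the same 6 receptors were again called higher and none lower, on the deposited scale (12.2% of genes higher, 8.51% lower), under each of 5 scalings (9.83%) and on the expressed-gene scale (36.7% higher, 35.8% lower). Here the median expressed gene differed by only 0.06 on the deposited scale, so both scales give nearly the same sizes. OPTN was 5.42 higher (SE 0.31), TOLLIP 3.15 (SE 0.46), SQSTM1 2.35 (SE 0.54), TAX1BP1 2.15 (SE 0.54), BNIP3L 2.08 (SE 0.50) and BNIP3 1.72 (SE 0.43) on the deposited scale. NBR1 (0.30), FUNDC1 (0.19) and CALCOCO2 (0.17) had adjusted p of 0.747, 0.777 and 0.879 in limma. These comparisons share the TFEB_Dox libraries and are not independent of each other.

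**Figure D3:**
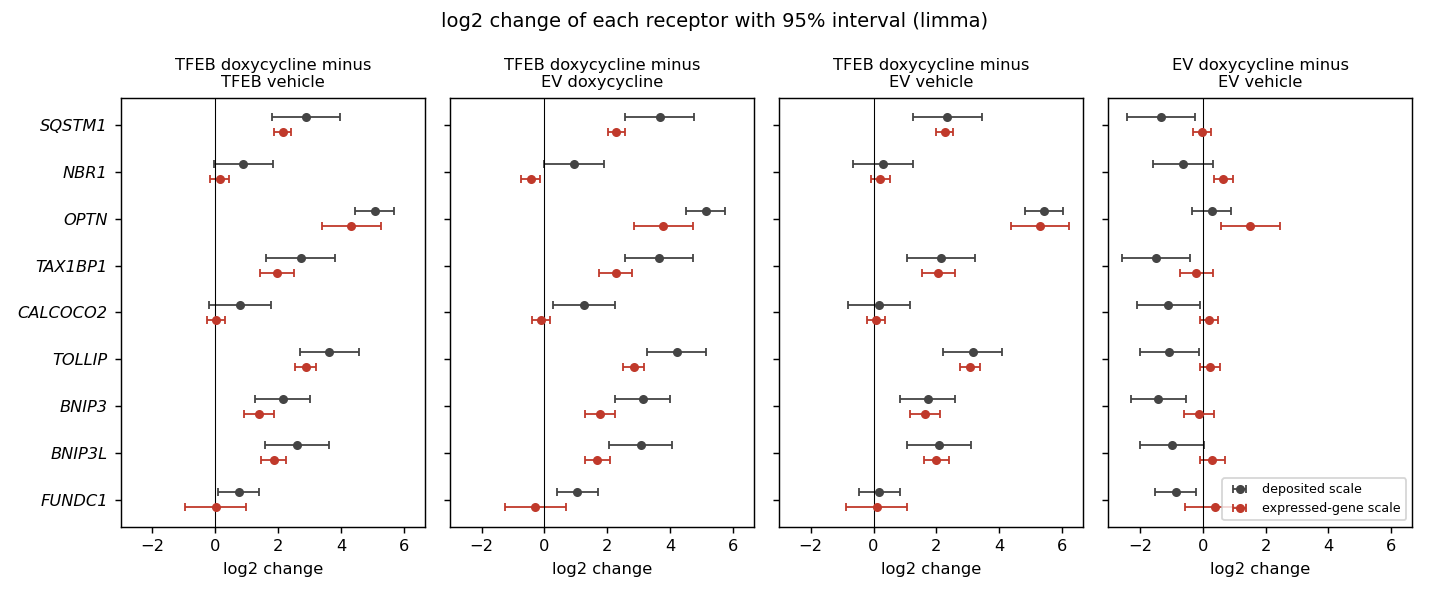
log2 change of each receptor (horizontal axis) with its 95% interval from limma, in 4 comparisons, on the deposited scale and on the expressed-gene scale, both fitted over 23128 genes. The 6 receptors that rose lie right of 0 on both scales in the 3 comparisons with TFEB_Dox, and NBR1 lies left of 0 against EV_Dox on the expressed-gene scale.

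Doxycycline in the empty vector line gave no receptor called higher on the deposited scale (3.39% of genes were) and 3 called lower (23.3% of genes were). These were BNIP3 (-1.41, adjusted p = 0.0197), TAX1BP1 (-1.49, adjusted p = 0.0389) and FUNDC1 (-0.86, adjusted p = 0.0456), all in limma. The median expressed gene differed by -1.29 in the same comparison, and on the expressed-gene scale none of the 9 was called lower, with 15.8% of genes called lower. In the fit of expressed genes 2 of 8 were called higher, where 19.4% of genes were. NBR1 was 0.66 higher (SE 0.13, adjusted p = 0.0026, limma) and OPTN 1.52 higher (SE 0.49, adjusted p = 0.0287, limma). For OPTN the expressed-gene values were 17.6, 7.63 and 20.4 in EV_Veh and 28.2, 42.0 and 63.1 in EV_Dox, all low, and the median of all genes tested moved by 1.05 in the same direction on that scale. Without EV_Veh replicate 2 or EV_Dox replicate 3 OPTN no longer passed (1.11 and 1.23, adjusted p = 0.0928 and 0.0737, limma, fit of all genes), while NBR1 passed without any 1 library. The number called lower on the deposited scale ranged from 0 without EV_Veh replicate 2, EV_Dox replicate 2 or EV_Dox replicate 3 to 7 without EV_Dox replicate 1, and was 1 without TFEB_Veh replicate 2 or TFEB_Dox replicate 3.

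Between the uninduced lines, TFEB_Veh against EV_Veh, no receptor was called in limma, and neither was any gene of the table (0% higher and 0% lower). At an unadjusted p under 0.05 limma gave 1754 genes and 0 receptors, edgeR 2754 genes and 1 receptor, and DESeq2 1903 genes and 0 receptors, with 0 calls after adjustment in each. With expressed genes as the scale, SQSTM1 differed by 0.12, with a 95% interval of -0.17 to 0.41, and TOLLIP by 0.19 (-0.13 to 0.51). For OPTN the interval was wide, -0.08 to 2.02 around 0.97.

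The interaction asks whether the response to doxycycline differed between the TFEB line and the empty vector line. On the deposited scale 8 receptors had a higher response in the TFEB line, where 29.2% of genes did and 6.15% a lower one, and the median expressed gene differed by 2.04. Under each of 5 scalings it was the 6 risers, against 10.8% of genes. After scaling on expressed genes the difference was 2.81 for OPTN (SE 0.69), 2.65 for TOLLIP (SE 0.21), 2.17 for SQSTM1 (SE 0.19), 2.16 for TAX1BP1 (SE 0.38), 1.54 for BNIP3L (SE 0.27) and 1.52 for BNIP3 (SE 0.32), each called. In that fit 30.4% of genes were called higher and 29.3% lower, and NBR1 was among the lower (-0.51, SE 0.18, adjusted p = 0.0283, limma). CALCOCO2 (-0.17, adjusted p = 0.449, limma) was not called. In the fit of all genes NBR1 did not pass without EV_Veh replicate 1 or 2, EV_Dox replicate 3, TFEB_Veh replicate 1 or TFEB_Dox replicate 1 (-0.50 to -0.40, adjusted p = 0.0517 to 0.0928, limma).

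Scaled to equal totals, per 1e6 reads of a library, the 9 receptors together took 346 ± 48.1 in EV_Veh, 335 ± 16.9 in EV_Dox, 347 ± 25.5 in TFEB_Veh and 1126 ± 91.2 in TFEB_Dox (SD, n = 3 each). The share of mitochondrially encoded reads, 21.0 to 33.1% in the 9 controls, was lower in TFEB_Dox at 13.3 to 17.9%, and its part in this result was not tested. The division of these reads among the receptors, which does not depend on the scale, also differed. OPTN went from 0.77 ± 0.42% of receptor reads in the 9 controls to 4.36 ± 0.83% in TFEB_Dox (SD, n = 9 and 3), and TOLLIP from 6.96 ± 1.05% to 14.7 ± 2.43%. CALCOCO2 went from 16.8 ± 1.71% to 4.63 ± 0.25%, NBR1 from 11.9 ± 2.48% to 3.18 ± 0.18% and FUNDC1 from 1.01 ± 0.37% to 0.26 ± 0.05%, each without overlap. SQSTM1 took 21.1 ± 2.31% and 27.4 ± 2.10%, also without overlap. The shares of TAX1BP1 (27.1% and 31.7%), BNIP3L (9.55% and 9.48%) and BNIP3 (4.94% and 4.33%) overlapped. NBR1 held 15.1 ± 0.26% in EV_Dox, above its 9.08 to 10.7% in the other control groups. These shares are of reads, not corrected for gene length, so each is to be read across libraries for 1 gene. The shares of a library add to a fixed total, so a lower share is not by itself a lower level. CALCOCO2, NBR1 and FUNDC1 were not called lower in TFEB_Dox than in TFEB_Veh on either scale.

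**Figure D4:**
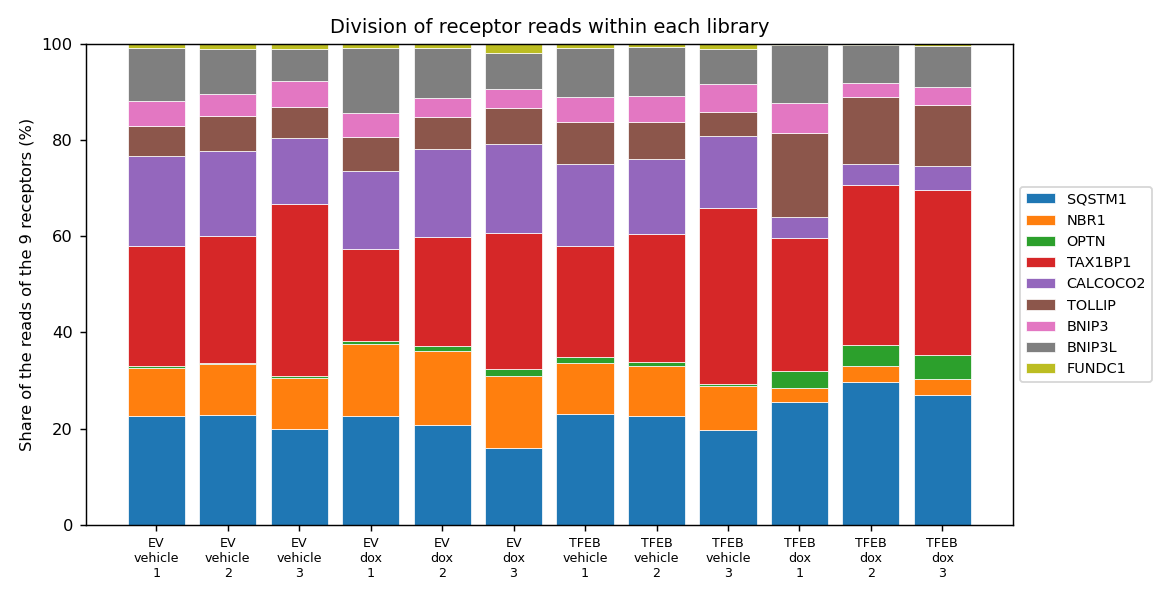
Share of the reads of the 9 receptors (vertical axis, percent) held by each receptor in each of the 12 libraries. In the 3 TFEB_Dox bars OPTN and TOLLIP take more, and CALCOCO2 and NBR1 less, than in any of the 9 control bars.

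Genes with the most similar profile were sought among those with a mean of at least 200, by the root mean square difference of centred log2 values over the 12 libraries on the expressed-gene scale. For OPTN the nearest were SGK1 (0.22), CCDC30 (0.22) and MYO16 (0.23). The filter mean includes TFEB_Dox, so genes low in the controls, OPTN among them, enter only through TFEB_Dox. Nearness to OPTN is in part a result of that filter. TOLLIP, the nearest receptor, stood at rank 277 of 7312, with SQSTM1 at 545. For FUNDC1, the receptor with the smallest change against TFEB_Veh on the deposited scale, the nearest were SREK1 (0.20), SCNM1 (0.21) and FAM98B (0.22). CALCOCO2 stood at rank 261 and NBR1 at 425 of 7313, and the 6 risers at rank 5794 (BNIP3) or beyond.

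The partners of the receptors were counted in TFEB_Dox against TFEB_Veh, where 17.4% of genes were called higher and 4.66% lower. Of the ATG8 family, which receptors bind on the membrane, 4 of 5 tested members rose, MAP1LC3B by 4.0, GABARAPL1 by 3.54, GABARAPL2 by 3.49 and GABARAP by 2.25, each under all 5 scalings, and MAP1LC3A (-0.04, adjusted p = 0.965, limma) did not pass. Its median was 3.49 on the deposited scale and 2.74 on the expressed-gene scale. Of 13 other selective autophagy receptors, such as those of the endoplasmic reticulum, 4 rose and 1 fell, under each scaling (12.6% of genes higher, 4.42% lower). On the deposited scale 31.5% of expressed genes were called higher and 3.51% lower, so the 4 of 13 are near that share. FAM134B (RETREG1, an endoplasmic reticulum receptor) rose by 2.89, FKBP8 (a mitochondrial receptor) by 2.48 and CALCOCO1, a relative of CALCOCO2 and TAX1BP1, by 2.46. ATL3 fell by 1.53. NCOA4, the ferritin receptor, was 0.34 higher (adjusted p = 0.728, limma). The median of these 13 was 0.85 on the deposited and 0.10 on the expressed-gene scale, close to the median expressed gene. In EV_Dox against EV_Veh, on the expressed-gene scale, CALCOCO1 rose by 1.69 (SE 0.20), FAM134B by 0.53 and FKBP8 differed by -0.02. The interaction of CALCOCO1 was 0.02 on that scale, and it was not called against EV_Dox under each scaling. GABARAPL1 rose by 1.79 (SE 0.26) in EV_Dox over EV_Veh on that scale, yet was higher against EV_Dox under each scaling.

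Kinases and ubiquitin enzymes that act on the receptors were called higher in 10 of 15 cases and lower in none, 9 of them under each scaling, with 31.5% of expressed genes called higher and 3.51% lower on the deposited scale. Against EV_Veh only 1 of the 15 was called higher, where 12.2% of all genes were, and against EV_Dox 14, where 27.2% were. TANK, an adaptor of TBK1, rose by 2.28, CSNK2A1, a catalytic subunit of casein kinase II, by 2.10 and TBK1 by 1.62. Scaled on expressed genes, the changes were smaller, 1.53, 1.35 and 0.87. PINK1 (0.91, adjusted p = 0.0929, limma) and PARK2 (-0.11, adjusted p = 0.836, limma), the pair that marks damaged mitochondria with ubiquitin, did not pass. In the ULK complex, which starts autophagosomes, 2 of 6 genes rose, near the 31.5% of expressed genes called higher. The 2 were RB1CC1 (FIP200, to which several receptors bind) by 2.89 and C12orf44 (ATG101) by 1.62, while ULK1 was at -0.24 (adjusted p = 0.76, limma). PINK1, PARK2, NCOA4, ULK1, GABARAP, MAP1LC3A and ATL3 were named after their values were seen.

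Regulators known to act on receptor genes were called higher in 6 of 8 cases, each under all 5 scalings, which 12.6% of genes met. Against EV_Veh 4 of the 8 were. In that comparison, given below for each list, 12.2% of all genes were called higher and 8.51% lower. Of expressed genes 17.6% were higher and 9.99% lower there. Over TFEB_Veh, EPAS1 (HIF-2 alpha) rose by 5.98, HIF1A by 3.32 and MAFG, a small MAF partner of NRF2, by 2.42. Of 16 HIF-1 target genes, a list to which BNIP3 and BNIP3L belong by function, 6 rose and 1 fell, with 5 and 1 under each scaling. With 31.5% of expressed genes called higher, this count is near the background, and against EV_Veh 5 of the 16 were higher. NDRG1 rose by 4.33, VEGFA by 3.55 and ADM by 2.62, and CA9, at a mean of 19.2, fell by 0.97. The median of the list was 0.88, and 0.13 on the expressed-gene scale. Of 11 NRF2 target genes tested, the pathway that SQSTM1 feeds by binding KEAP1, 6 rose and 5 did so under each scaling, and against EV_Veh 4 were higher. HMOX1 rose by 4.91, OSGIN1 by 3.56 and ME1 by 2.72, and the median was 1.26 and 0.52. Of 14 partners in NF-kB and Toll receptor signalling 5 rose under each scaling and none fell, also near the share of expressed genes, and against EV_Veh 1 was higher and 1 lower. RNF11, a member of the A20 complex with TAX1BP1, rose by 3.30, IRAK1, which TOLLIP binds, by 2.22 and TRAF3 by 1.94. The median here was 0.88 and 0.13. For the NRF2 targets, the median in EV_Dox against EV_Veh was 1.07 on the expressed-gene scale, where that of all genes tested was 1.05. On the deposited scale it was -0.19, with 2 called higher and 3 lower (3.39% and 23.3% of genes). Against EV_Dox 3 of the 11 were higher under each scaling (13.3% of genes), with a median of 0.22 on the expressed-gene scale. The interaction median of the list was -0.36 on that scale. CA9 was named after its values were seen.

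**Figure D5:**
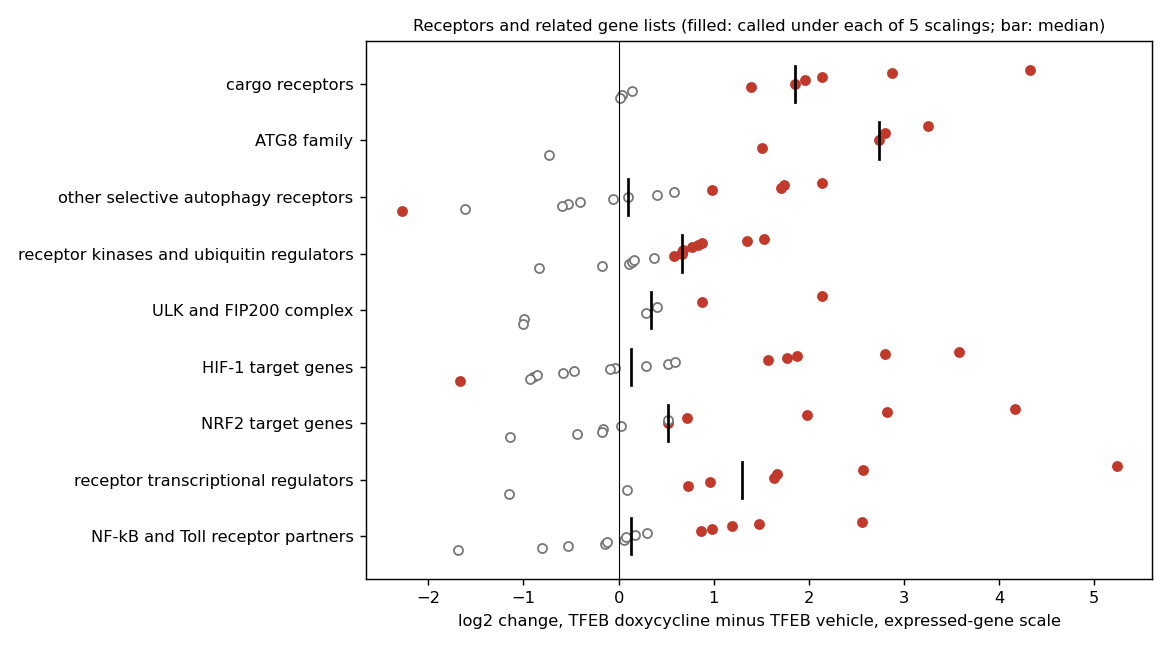
log2 change from TFEB_Veh to TFEB_Dox on the expressed-gene scale (horizontal axis) for the receptors and 8 related gene lists. Each point is a gene, filled where called under each of 5 scalings, and black bars are list medians. The receptor median is 1.85 and that of the ATG8 family 2.74, while the other selective autophagy receptors (0.10), HIF-1 targets (0.13) and Toll partners (0.13) centre near 0.

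Cell identity markers also differed between the groups. The summed deposited level of 8 promyelocyte markers was 50690 to 223300 in EV_Veh and TFEB_Veh, 5193 to 30580 in EV_Dox and 8077 to 11330 in TFEB_Dox. With expressed genes as the scale it was 69270 to 101000 in EV_Veh, 75890 to 96540 in TFEB_Veh, 16600 to 33890 in EV_Dox and 5952 to 8195 in TFEB_Dox. In TFEB_Dox against TFEB_Veh 5 of these 8 markers fell under each scaling, which 4.42% of genes did, with PRTN3 at -3.75, MPO at -3.46 and MYB at -2.79, and none rose. Of 7 monocyte and macrophage markers tested 4 rose under each scaling, where 12.6% of genes did (MARCO 7.89, ITGAX 6.52, CD68 4.52 and CD163 2.99) and 1, CSF1R, fell by 1.93, while CD14 (0.79, adjusted p = 0.0992, limma) did not pass and MRC1 was at 0 in all libraries. Their sum was 460 to 1294 in the controls and 15050 to 25170 in TFEB_Dox on the deposited scale. On the expressed-gene scale it was 282 to 512 in EV_Veh, 471 to 808.5 in TFEB_Veh, 1335 to 1543 in EV_Dox and 11730 to 13850 in TFEB_Dox. CD68 was low, at 0.97 to 110.8 over the 12 libraries with a mean of 26.4. Whether it passes the filter of 10 without TFEB_Dox was not checked. Of 10 lymphoid markers 3 rose under each scaling (12.6% of genes did), CD22 by 7.72, TRAC by 4.40 and NKG7 by 3.72. One (1), CD79A, fell by 1.09, also under each scaling (4.42% of genes did). The T cell marker CD3E stayed at 30.6 or below in every library. Of 5 erythroid markers tested none rose and KLF1 fell by 1.16, and the most abundant of them, EPOR (-0.16) and SLC4A1 (-0.38), did not pass. The part of these shifts in the receptor changes was not tested. CD163, CSF1R, CD14, MRC1, CD3E, CD79A and KLF1 were named after their values were seen.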

How the data were processed

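RNA was measured in 12 HL60 libraries. RNA was purified on NucleoSpin RNA II columns and libraries were made with an Ovation kit of NuGEN for human FFPE RNA, per the labels' protocols. STAR 2.5.3a and HTSeq 0.6.1 are named in the submitters' processing notes. Not given in the sources used here: genome build, annotation and strand setting. The authors deposited normalized read counts (a signal, not raw counts) for 57820 genes. In each library these values were whole multiples of 1 step (100% of values within 0.01), so reads could be recovered. In 2 libraries the step lay within 1% of 1.

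Because the deposited values are normalized, limma 3.58.1 (R 4.3.3) with an intensity trend was fitted to log2(value + 1) over all 4 groups and the 23128 genes with a mean of at least 10, with Benjamini-Hochberg adjustment at 0.05. A fold change on this scale understates the change of low genes. The pseudocount, the filter, 4 other library scalings, a fit of expressed genes only, a replicate block, the compared groups alone, each library left out, and edgeR 4.0.16 and DESeq2 1.42.0 on recovered reads were tried. In TFEB_Dox against TFEB_Veh edgeR called 6685 genes and limma 5109. The combinations of the expressed-gene scale with a left-out library, the block or a pseudocount of 10 were added after seeing the data. Tested on simulated data for TFEB_Dox against TFEB_Veh (23128 genes), limma recovered 14% of genes changed 2-fold and 84% of those changed 4-fold. The simulated counts were scaled to equal totals before the fit, which the deposited values were not. These rates therefore need not hold for the main test.

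Named genes are TFEB, all 9 receptors, of each related list up to 3 called genes with the largest change (with fewer than 2 called, the 2 with the highest mean), and the 3 genes most similar in profile to the receptors with the largest and the smallest change. Others are marked in the text as named after their values were seen. The members and lists were chosen with earlier results of these data known. Promoter windows were taken from RefSeq. Figures were drawn with matplotlib 3.10.9.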

Additional observations from a re-analysis of the deposited data

Results flagged for a closer look

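The response to doxycycline differed between the TFEB line and the empty vector line for 8 of the 9 receptors, by the interaction term of limma on the deposited scale. In this term 29.2% of all genes tested were called higher and 6.15% lower, and 62.6% of expressed genes were called higher. The response of the TFEB line minus that of the empty vector line was 4.79 in log2 for OPTN, 4.68 for TOLLIP, 4.21 for SQSTM1, 4.20 for TAX1BP1, 3.58 for BNIP3L, 3.55 for BNIP3, 1.87 for CALCOCO2 and 1.60 for FUNDC1. The median expressed gene had a difference of 2.04 on the same scale, above the values of CALCOCO2 and FUNDC1. On the expressed-gene scale the differences of these last 2 were -0.17 and -0.39, and neither was called. The deposited-scale call of CALCOCO2 was lost without any 1 of EV_Veh replicates 1 and 2, EV_Dox replicates 2 and 3, TFEB_Veh replicates 1 and 2 and TFEB_Dox replicates 2 and 3 (adjusted p = 0.0502 to 0.0932, limma).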

How the results depend on the processing

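The 6 receptors that rose kept their direction and call in the 3 comparisons with TFEB_Dox and in the interaction under every planned setting. On the deposited scale, leaving out 1 library gave 6 to 7 receptors higher against TFEB_Veh, 6 to 9 against EV_Dox, 6 against EV_Veh and 7 to 9 in the interaction, and on the expressed-gene scale 6 in each. Against TFEB_Veh, FUNDC1 was called without TFEB_Veh replicate 3 (1.12, adjusted p = 0.0173, limma). With the compared groups alone NBR1 and FUNDC1 were also called, which gave 8.

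Receptors lower in EV_Dox than in EV_Veh numbered 3 in the main fit, 1 with no filter and with edgeR, 0 in the compared groups alone, and 0 with equal totals, upper quartile and the expressed-gene scale (also with expressed genes only, the block or a pseudocount of 10). Leaving out 1 library gave 0 to 7 on the deposited and 0 on the expressed-gene scale. Receptors higher there numbered 0 in the main fit, 2 with equal totals, upper quartile and the expressed-gene scale (also with expressed genes only or a pseudocount of 10), 3 with the block on that scale, and 1 to 2 with 1 library left out there. One receptor (1), NBR1, was lower against EV_Dox with equal totals and under every form of the expressed-gene scale, and 1 in the interaction under the latter, with 0 to 1 when 1 library was left out. The cause was not tested.

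Directions reversed for receptors near the median gene. With equal totals NBR1, CALCOCO2 and FUNDC1 were at -0.50, -0.18 and -0.35 against EV_Dox; NBR1 and FUNDC1 at 0.50 and 0.24 in EV_Dox against EV_Veh; CALCOCO2 and FUNDC1 at -0.12 and -0.34 in the interaction. With upper quartile FUNDC1 was at -0.071, 0.16 and -0.10 in these comparisons and NBR1 at 0.41 in the second. On the expressed-gene scale, with or without the block, NBR1, CALCOCO2 and FUNDC1 were at -0.44, -0.12 and -0.30 against EV_Dox and -0.51, -0.17 and -0.39 in the interaction, and NBR1 and FUNDC1 at 0.66 and 0.40 in EV_Dox against EV_Veh. With a pseudocount of 10 there the values were -0.43, -0.12 and -0.26, then -0.50, -0.16 and -0.33, then 0.64 and 0.34. Over both scales, leaving out 1 library spanned -0.50 to 1.26 (NBR1), -0.20 to 1.53 (CALCOCO2) and -0.53 to 1.198 (FUNDC1) against EV_Dox, and -0.63 to 1.84, -0.25 to 2.14 and -0.64 to 1.98 in the interaction. In EV_Dox against EV_Veh it spanned -0.95 to 0.77 (NBR1), -1.09 to 0.63 (FUNDC1), -1.70 to 0.064 (TAX1BP1) and -1.85 to 0.033 (BNIP3), where TAX1BP1 and BNIP3 turned positive on the expressed-gene scale without EV_Veh replicate 3.

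Replicate numbers were not taken as pairing in the main fit. Yet 14 of 18 same-numbered pairs correlated above 0.1 (-0.22 to 0.72), where pairs of unlike number ran from -0.70 to 0.61. Of the 12 libraries 10 correlated best with their own number. Libraries of 1 number may thus share a component that the main p-values leave out. With the replicate block 6 receptors were higher against TFEB_Veh, 8 against EV_Dox, 6 against EV_Veh and 9 in the interaction, where NBR1 passed (adjusted p = 0.0465, limma). In EV_Dox 4 were lower, SQSTM1 included (adjusted p = 0.0364, limma). On the expressed-gene scale the block put BNIP3L at 0.31 in EV_Dox against EV_Veh.

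Over all genes, planned settings other than left-out libraries gave 2636 to 5449 genes higher and 647 to 6673 lower against TFEB_Veh (main 4032 and 1077), 2650 to 6777 and 356 to 14309 against EV_Dox (6282 and 1242), 2247 to 4315 and 1600 to 4824 against EV_Veh (2821 and 1968), 243 to 10204 and 1152 to 6755 in EV_Dox against EV_Veh (783 and 5396), and 2214 to 7432 and 220 to 13398 in the interaction (6755 and 1422). Calls against TFEB_Veh were 78.9% higher on the deposited and 41.0% on the expressed-gene scale, against EV_Dox 83.5% and 19.7%, in EV_Dox against EV_Veh 12.7% and 88.5%, and in the interaction 82.6% and 15.9%. OPTN rested on 17 to 32 recovered reads in each control library, which limits the precision of its change.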
